A study of Drosophila melanogaster with 10 samples.

Results

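The comparison described here set the arrays numbered 1 or 2 against those numbered 3 to 5, whichever group they belonged to. It rested on 4 of the 10 arrays (control lines 1 and 2 and heat selected lines 1 and 2) against the other 6 (3 control and 3 heat selected). The number in the sample title chose the arrays, but the division at line 2 was proposed after the arrays had been seen to separate that way. The difference between lines 1 and 2 and lines 3 to 5, called the split below, is therefore given as a description, with no test of its own.

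Transcript levels were measured with RNA extracted from whole female fruit flies (Drosophila melanogaster, adults) on short-oligonucleotide arrays. The control group held 5 lines that had not been selected and the other group held 5 independent lines selected for resistance to heat, with 1 biotin-labelled sample and 1 array per line. No genotype, age or treatment was given in the labels used here for any of the lines, nor why both groups share the numbers 1 to 5. The spread between arrays is thus a spread between lines, handling included.

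On arrays of this type the labelled copy of an mRNA is started at its poly(A) tail, at the 3′ end. Probes that lie far from the tail read less label when the RNA is broken or the copy stops early, so such arrays carry control probe sets at the 5′ end, the middle and the 3′ end of a few abundant transcripts. A probe set is the group of probes that reports 1 transcript or 1 stretch of it, and a gene may have several. Whole adult females hold large ovaries, so that transcripts of nurse cells, oocytes and follicle cells take a large share of their RNA, beside those of flight muscle, gut, fat body and head.

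Medians of the arrays lay between 41.9 and 48.3 intensity units, and 12094 probe sets exceeded 3 on the log2(intensity + 1) scale on at least 5 arrays. All levels and differences below are on that scale. The 23 control probe sets for transcripts of other organisms, which have no target in a fly, lay between 2.13 and 3.64, a range in which a level carries little information. The label of the tissue as female was set against genes of male tissue. Of the testis genes 13 of 21 and of the male accessory gland genes 12 of 14 passed the filter, with median levels of 3.90 and 3.74, close to those of the absent controls. Their mean level per array was 3.95 to 4.32 on lines 1 and 2 and 4.17 to 4.37 on lines 3 to 5 for testis, and 3.39 to 3.83 and 3.68 to 3.90 for the accessory gland.

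The first principal component, 37.0% of the variance, separated the arrays by line number in both groups. Its score was -26.1 in control line 1 and -25.8 in selected line 1, and -6.74 and -10.8 in the corresponding lines 2. All 6 arrays of lines 3 to 5 lay above 0, from 6.09 in control line 5 to 19.3 in selected line 4. Line 1 thus lay farthest from the rest and line 2 between. The second component, 23.6% of the variance, did not follow the line number. It ran from -23.1 in control line 2 to 16.5 in selected line 3.

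**Figure D1:**
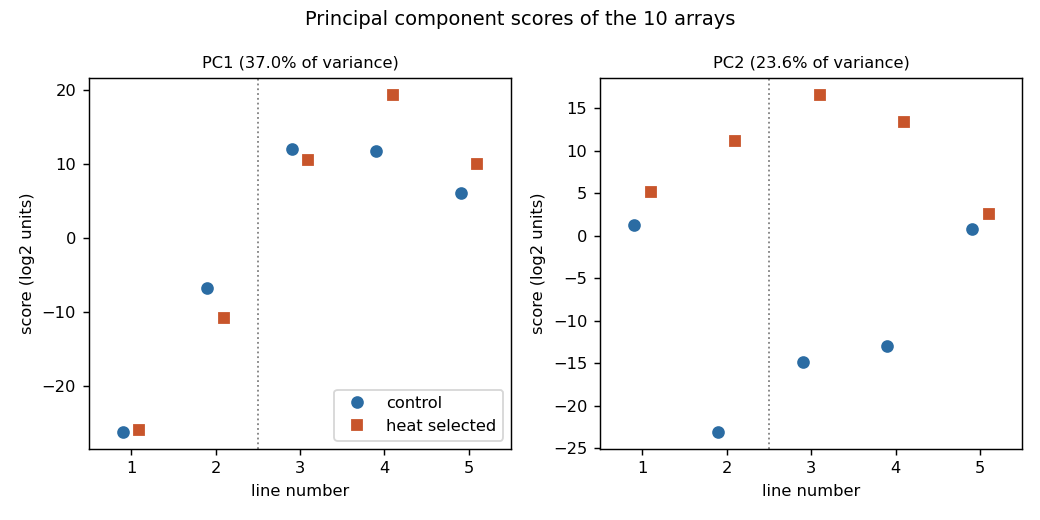
Scores of the 10 arrays on the first principal component (left) and the second (right), in log2 units, against line number. Circles are control lines, squares are heat selected lines and the dotted line marks the division between lines 2 and 3. On the first component the arrays of lines 1 and 2 lie below 0 in both groups and the 6 others above it.

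In a linear model with the group as a covariate, 1363 of 12094 probe sets (11.3%) passed an adjusted p of 0.05 for the split. Of these, 1072 were lower in lines 1 and 2 (8.86% of all) and 291 were higher (2.41%). The arrays of the 2 sides did not overlap at all for 1053 lower (8.71%) and 271 higher (2.24%) probe sets. The called lower probe sets named 868 genes and the called higher ones 256 genes. Their medians were -0.53 and 0.36, beside -0.052 over all probe sets, and the median standard error was 0.085. At the limit of the call lay borr, a gene of the chromosomal passenger complex of dividing cells (0.37 ± 0.11, not called) and crm (-0.26 ± 0.077, called), each with the standard error of limma. The count rose to 3889 without control line 2 and to 4625 without line 2 of both groups. The count of higher probe sets varied most, with 836 when control line 2 was left out, 124 for selected line 1, 173 for control line 1, 182 for control line 3, 175 for control line 4 and 126 for line 1 of both groups. After quantile normalization of the deposited values 546 were higher and 941 lower.

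The split ran the same way in both groups of lines, which share no array. Within the control lines alone 421 probe sets were lower and 28 higher past the threshold (3.48% and 0.232% of all), and within the selected lines 595 and 81 (4.92% and 0.67%). Every one of the 1363 called probe sets had the same sign in both groups. Across all 12094 probe sets, which are not independent replicates, the split in control lines and the split in selected lines had a Pearson r of 0.75 and a Spearman rank correlation of 0.67. The rule chose the split over both groups together, so these values describe the structure and are no support for it.

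**Figure D2:**
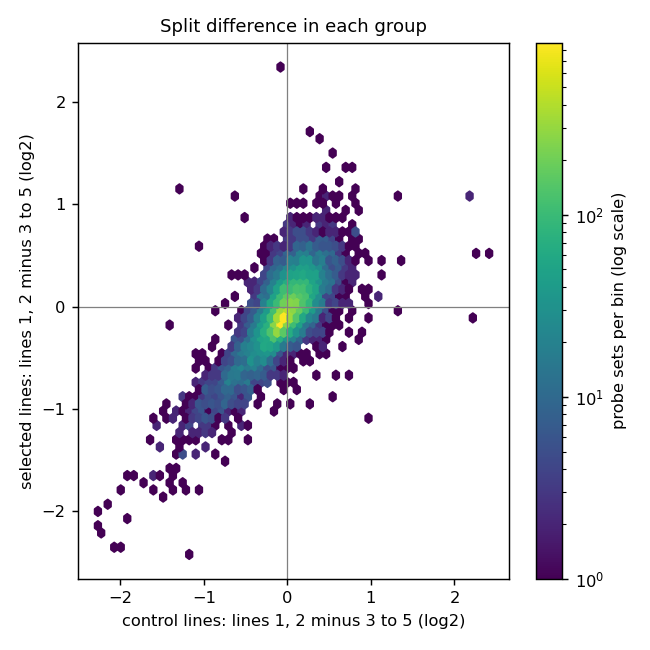
Split difference of each kept probe set among control lines (horizontal) and among heat selected lines (vertical), both as lines 1 and 2 minus lines 3 to 5 in log2 units, with the number of probe sets per hexagon as colour on a log scale. The cloud runs along the diagonal (r of 0.75 over 12094 probe sets), and its long arm holds probe sets lower in lines 1 and 2 of both groups.

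The split was chosen as one that both groups share, so its difference between the groups is given as a description and says nothing of how alike the groups are. No probe set passed limma's test of the interaction after Benjamini-Hochberg adjustment, and 324 (2.68%) had an unadjusted p under 0.05, 155 of them with a higher and 169 with a lower split in the selected lines. The lowest adjusted p was 1.0. Among the nearest was Mitf, a transcription factor of lysosome genes, whose probe set 151317_i_at had a split of -1.41 among control lines and of -0.17 among selected lines (difference 1.24 ± 0.26 SE). Its second probe set, 151318_r_at, had -0.64 and -0.61. The other was emc, a repressor of helix-loop-helix transcription factors, with 0.20 and 0.66.

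The genes with the greatest deficit in lines 1 and 2 included genes of the germline, the nuclear pore and the synapse as well as uncharacterised ones. Uncharacterised CG31342, on chromosome arm 3R, stood at 4.50 and 4.28 in control lines 1 and 2 and at 3.89 and 4.38 in selected lines 1 and 2, in probe set 149810_at. In lines 3 to 5 it lay between 6.22 and 7.0 with a median of 6.41. The difference was -2.23 ± 0.16 (SE), so that lines 3 to 5 were 4.70-fold higher, and the nearest arrays of the 2 sides lay well apart. The brighter second probe set of CG31342, 154631_at, stood at 9.07 and 8.88 in control lines 1 and 2, at 9.35 and 8.86 in selected lines 1 and 2, and between 8.58 and 9.31 in lines 3 to 5 with a median of 9.02. There the sides overlapped, with a difference of 0.048 ± 0.13 (SE) that was not called.

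CG9727 on 3R had levels of 4.19 and 3.84 in control lines 1 and 2 and of 3.86 and 4.05 in the selected ones. Lines 3 to 5 had 5.89 at the lowest, 6.03 at the median and 6.52 at the highest, a 4.37-fold higher level (difference -2.13 ± 0.12). Its values in lines 1 and 2 came close to the range of absent controls, so its deficit may be understated. The gene gry on 3L, whose product belongs to a trafficking complex of the Golgi, stood at 5.66 and 5.14 in control lines 1 and 2 and at 4.83 and 6.06 in the selected ones, against 7.45 to 7.89 in lines 3 to 5 with a median of 7.60. Lines 1 and 2 were low in all 4 arrays, and their own spread was wider than that of the other 6.

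The germline gene orb, on 3R, encodes an RNA-binding protein that acts on the localisation and translation of mRNAs in the oocyte. Its probe set 151666_s_at gave 5.18 and 4.64 in control lines 1 and 2 and 5.08 and 4.92 in selected lines 1 and 2, and 6.80 to 7.23 with a median of 7.0 in lines 3 to 5. The difference was -2.06 ± 0.12, a 4.18-fold higher level in lines 3 to 5. The second probe set of the same gene, 142731_at, gave 10.2 and 9.93 in control lines 1 and 2, 10.7 and 10.2 in the selected ones, and 9.7 to 10.4 with a median of 10.1 in lines 3 to 5. It overlapped between the sides and was not called (difference 0.23 ± 0.15).

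The gene rig, on 2R, has a role in ecdysone signalling. Its probe set 147560_at stood at 5.90 and 5.65 in control lines 1 and 2 and at 5.58 and 6.29 in selected lines 1 and 2. The 6 other arrays lay between 7.83 and 8.37 with a median of 8.09, so that the difference was -2.22 ± 0.14, a 4.65-fold higher level in lines 3 to 5. The second probe set differed by -0.42 ± 0.079 and the third by -0.18 ± 0.14, and the last was not called. The first of these readings kept the sides wide apart and the third overlapped.

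**Figure D3:**
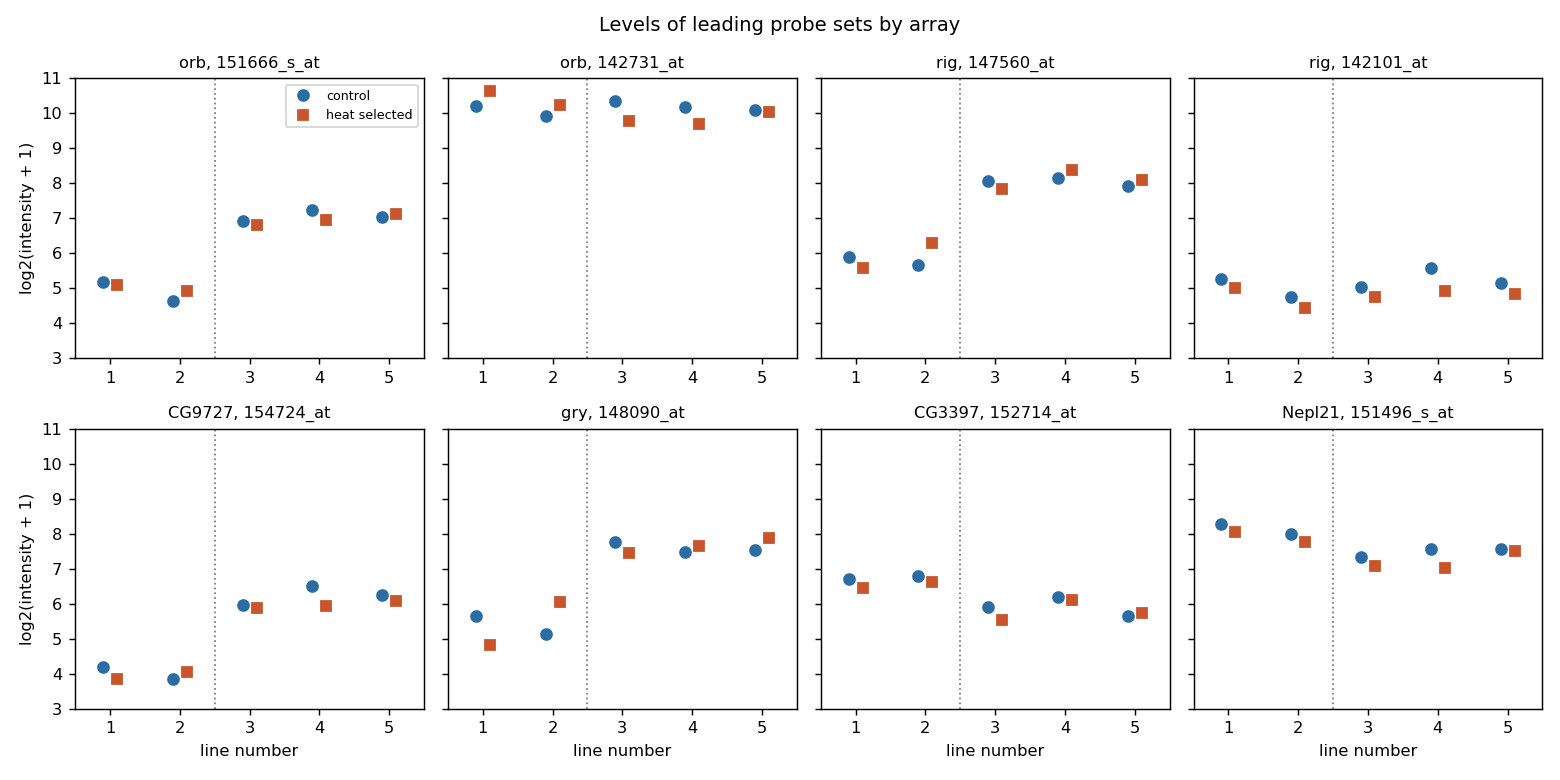
Level of 8 probe sets, as log2(intensity + 1), against line number, with circles for control lines and squares for heat selected lines. The first probe sets of orb and rig, and those of CG9727 and gry, lie lower on all 4 arrays of lines 1 and 2, while the other probe sets shown for orb and rig do not separate. CG3397 and Nepl21 lie higher on lines 1 and 2 by less than 1 unit.

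Unequal readings within a gene were common in the called lower set. The gene whose product is cut into the nuclear pore proteins Nup98 and Nup96 had probe sets at -1.72, -0.47 and 0.063. The chromatin protein gene wge had -2.16, -0.34 and -0.12. Tomosyn, whose product binds the SNARE proteins of vesicle fusion, had 5 probe sets at -1.80, -1.48, -0.46, -0.15 and 0.023. Svil, a gene of the supervillin family of actin-binding proteins, ran from -1.65 to 0.42 over 5 probe sets, the lowest of which stood at 2.46 to 3.42 in lines 1 and 2, within the range of absent controls.

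Among the 15 leading lower genes, chosen by the size of the difference among those called with no overlap, 13 had several kept probe sets. For 10 of those 13 at least 1 probe set was not called. The 3 with every probe set called were CASK, a scaffold protein of synapses (-1.63 and -0.71), CG46385 (-1.87 and -0.80) and MCPH1, a gene of early embryonic nuclear cycles (-1.60, -0.72 and -0.36). The others of the 15 included Ranbp16, a gene of the nuclear transport receptor family (-1.75), and Eato, an ABC transporter gene (-1.56). Both genes had a second probe set that was not called, at -0.24 for Ranbp16 and at -0.058 for Eato.

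Over the whole array 921 genes had more than 1 kept probe set, and 297 of them had at least 1 called lower. In 54 of the 297 every probe set was called lower, in 239 the others were not called, and in 4 another was called higher. These 4 were Pp2C1, CG42271, sbb and Pabp2, named after their values were seen. The median gap between the highest and the lowest probe set of a gene was 0.23 over all 921 genes and 0.62 over the 297. In the 297 the highest probe set had a median difference of -0.096. Taking the highest of a gene raises that value in itself, so it cannot be set against the median of all probe sets. The choice of genes by their lowest probe set widens the gap between highest and lowest in itself, and no test was made of it.

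The lower set consisted mainly of long genes. The stretch of genome from a gene's first to its last base, introns included, was known for 10762 kept probe sets. It had a median of 7757 bases for the called lower, 1769 for the called higher and 2493 for those not called. When probe sets were put in 10 equal bins by that span, 0.186% were called lower in the shortest bin (177 to 937 bases) and 0.0929% in the next. The share was 2.33% in the fifth bin (2135 to 2756 bases), 9.55% in the sixth and 21.1% in the eighth (5713 to 10147 bases), and 15.3% in the longest. The share called higher went the other way, from 3.62% in the shortest bin to 0.558% in the longest.

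Brightness was not the same across these bins, so they were also taken over probe sets with a mean level above 5. There the share called lower ran from 0.182% in the shortest bin to 30.2% in the longest, without the dip at the end. The median difference of line 1 from lines 3 to 5 went from 0.25 in the shortest bin to -0.17 in the longest, and that of line 2 from 0.047 to -0.17. Over all probe sets, dim ones included, the medians in the longest bin were -0.18 for line 1 and -0.036 for line 2, and in the bin before it -0.17 and -0.061. Line 2 was thus close to line 1 among long genes only where dim probe sets were left out. Only the span of the gene was at hand, not the length of its mRNA or the place of a probe set along it.

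**Figure D4:**
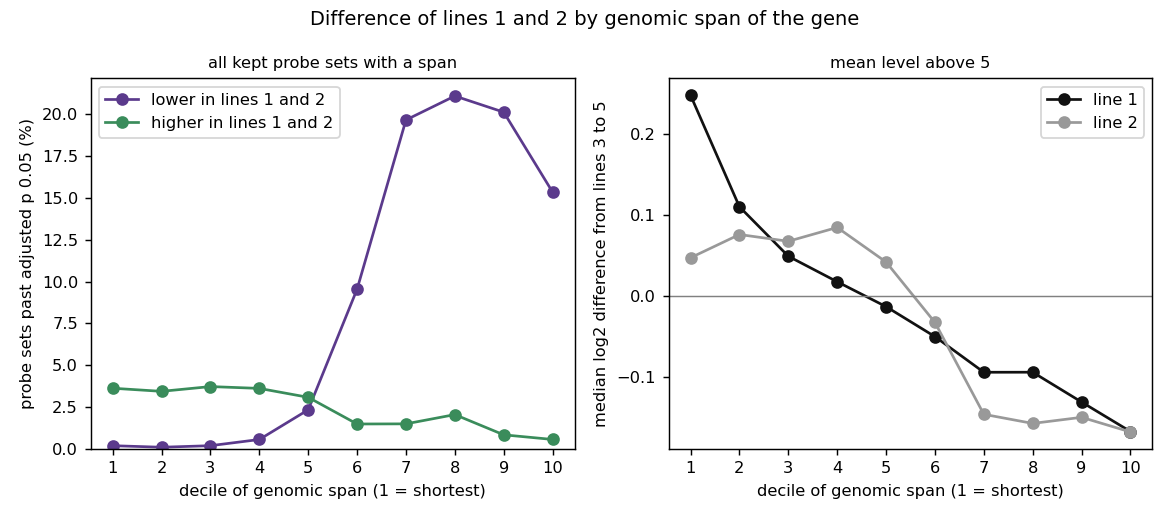
Left, percentage of kept probe sets called lower (dark) or higher (light) in lines 1 and 2, by decile of the gene's genomic span from shortest to longest. Right, median difference of line 1 and of line 2 from lines 3 to 5 in log2 units, by the same deciles, for probe sets with a mean level above 5. The share called lower climbs from under 1% in the 4 shortest deciles to about 20% in the seventh to ninth.

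By mean level, the called lower were fewest in the dimmest of 5 equal bins of probe sets (0.372%) and most frequent in the middle bin (15.7%), with 9.01% in the brightest. By chromosome, the share was 18.3% on the small chromosome 4 (13 of 71 probe sets) and 12.3% on the X, against 6.29% on 2L and 8.60% to 8.79% on 2R, 3L and 3R. Probe sets whose names mark shared or similar sequences were also more often lower, at 21.1% of the 161 ending in s_at and 26.5% of the 49 ending in f_at.

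The control transcripts of the fly gave a direct reading of the 3′ to 5′ balance. For actin mRNA the 3′ probe set exceeded the 5′ one by 1.69 and 1.25 in control lines 1 and 2 and by 2.55 and 0.941 in selected lines 1 and 2, and by 0.760 to 1.18 with a median of 1.06 in lines 3 to 5. For eIF-4a mRNA, a translation initiation factor, the excess was 3.26 and 2.77 in control lines 1 and 2 and 3.67 and 2.38 in the selected ones, and 1.83 to 2.68 with a median of 2.41 in lines 3 to 5. Line 1 lay above every array of lines 3 to 5 for both mRNAs in both groups, control line 2 lay just above them, and selected line 2 lay within their range.

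For GAPDH mRNA, a glycolytic enzyme, the excess was 1.87 and 1.78 in control lines 1 and 2 and 2.06 and 1.64 in the selected ones, and 1.61 to 1.90 in lines 3 to 5. Only selected line 1 stood outside that range on the high side. For 18S ribosomal RNA it was 1.44 and 1.01 in control lines 1 and 2 and 1.5 and 0.566 in the selected ones, and 0.600 to 0.885 in lines 3 to 5, again with line 1 of both groups on top and control line 2 next. This RNA has no poly(A) tail. Its 5′ and 3′ probe sets were both higher in the mean of lines 1 and 2, by 0.28 and 0.62. The 5′ probe sets of actin, eIF-4a and GAPDH were lower in that mean, by -0.43, -0.71 and -0.23. For each of these mRNAs line 1 of both groups lay below every array of lines 3 to 5. Control line 2 lay below them only for eIF-4a, at 11.3 against 11.4 at the lowest. Selected line 2 lay below them for none, and for actin it lay above them, at 10.3 against 10.2 at the highest. In selected line 1 the 5′ probe set of actin stood at 8.82, while the next lowest array, control line 1, stood at 9.52, and its 3′ probe set at 11.4 was not low.

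The mean excess over the 3 mRNAs was 2.27 in control line 1, 1.93 in control line 2, 2.76 in selected line 1 and 1.65 in selected line 2. In lines 3 to 5 it lay between 1.43 and 1.87 with a median of 1.73. The sides differed by 0.442, with 2.15 ± 0.48 (SD, n = 4) against 1.71 ± 0.16 (SD, n = 6). The difference was 0.599 for actin, 0.651 for eIF-4a, 0.0778 for GAPDH and 0.35 for 18S ribosomal RNA. The sides came from the same arrays and the values of line 1 were known when this measure was chosen, so these differences are a description, with no test.

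Line 1 carried the 3′ excess. Without line 1 of both groups the difference was 0.0797, without line 2 it was 0.805, and without selected line 1 alone it was 0.165. Called lower were 1072 probe sets with all arrays, 895 without line 1 of both groups and 3463 without line 2 of both groups. Called higher were 291, 126 and 1162. The part of the 3′ excess in the split was not tested. With the 3′ excess as a further covariate 756 probe sets were called lower and 74 higher. The mean level of the absent controls was 2.70, 3.01, 2.81 and 2.87 in control line 1, control line 2, selected line 1 and selected line 2, and 2.87 to 3.04 in lines 3 to 5, and that of 9 hybridisation spikes was 9.59 to 9.93 over all arrays.

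**Figure D5:**
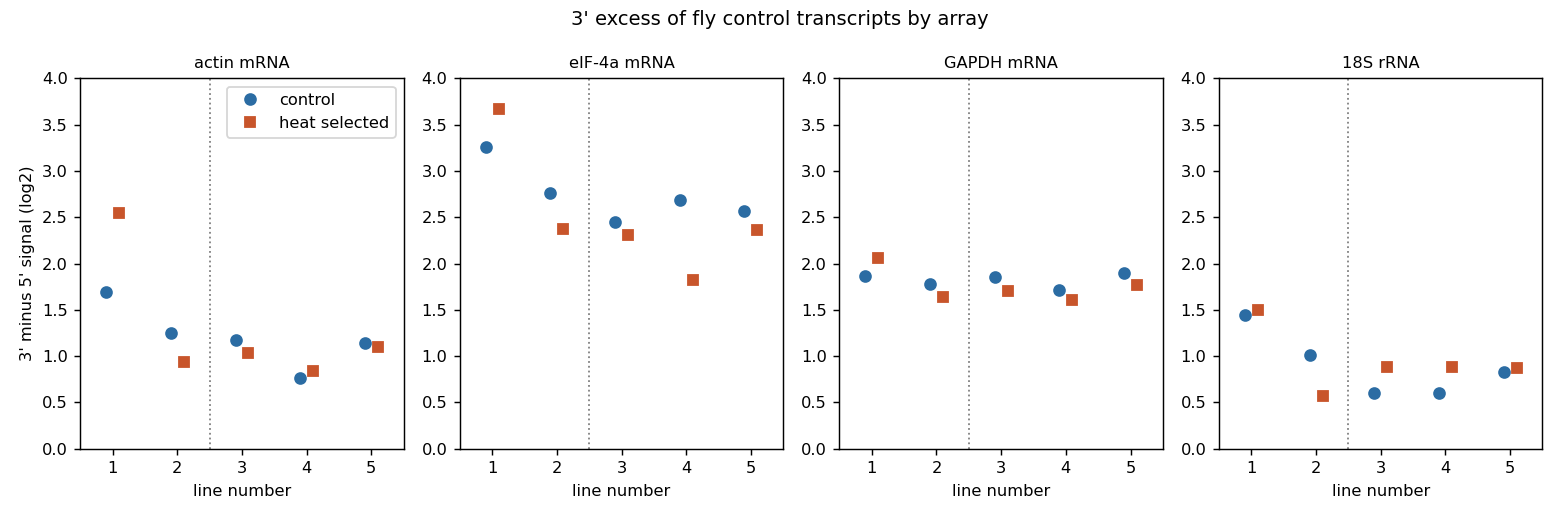
Excess of the 3′ over the 5′ probe set, in log2 units, of actin, eIF-4a and GAPDH mRNA and of 18S ribosomal RNA against line number, with circles for control lines and squares for heat selected lines. Line 1 of both groups is highest for actin, eIF-4a and 18S, and selected line 2 lies within the range of lines 3 to 5 for the 3 mRNAs and below it for 18S.

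Lines 1 and 2 were each set against lines 3 to 5, which both differences share. Line 1 had 748 higher and 1332 lower called probe sets (6.18% and 11%), and line 2 had 42 higher and 734 lower (0.347% and 6.07%). Over all probe sets the median was -0.10 for line 1 and -0.0036 for line 2. The 1072 lower probe sets of the split had medians of -0.57 and -0.51, and all of them were below 0 in line 2 as well. The 291 higher ones had medians of 0.43 and 0.31, and all were above 0 in line 2. Both sets were called on lines 1 and 2 against the same lines 3 to 5, which favours the same sign and similar medians in both lines. The medians and signs of these sets therefore cannot show whether line 2 shares the split.

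Single genes show the range. E23, an ABC transporter gene induced by ecdysone, was lower by similar amounts, with -1.11 in line 1 and -1.27 in line 2. Klp10A, a kinesin that takes apart microtubule ends, had -1.20 and -0.86. NT5E-2, a gene of the 5′-nucleotidase family, was almost wholly a matter of line 1, at 5.21 and 5.20 in its 2 arrays, 3.98 and 4.19 in those of line 2 and 3.61 to 4.02 in lines 3 to 5. Its difference was 1.36 in line 1 and 0.24 in line 2.

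The genes higher in lines 1 and 2 differed by less than those that were lower. Jhbp5, a gene of the juvenile hormone-binding protein family on 3R, had 10.2 and 9.32 in control lines 1 and 2 and 9.83 and 9.33 in the selected ones, and 7.71 to 9.11 with a median of 8.91 in lines 3 to 5. The 2.08-fold higher level (1.06 ± 0.28) rested partly on low values in selected lines 3 and 4, at 7.86 and 7.71. CG3397 on 3R had 6.70 and 6.79 in control lines 1 and 2 and 6.45 and 6.63 in the selected ones, against 5.54 to 6.19 with a median of 5.83, a 1.73-fold difference (0.79 ± 0.13). Nepl21, of the neprilysin-like family of peptidases, had 8.29, 7.99, 8.06 and 7.76 on these 4 arrays and 7.02 to 7.58 on the others, 1.60-fold (0.68 ± 0.11).

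The 12 remaining leaders lay between 0.57 and 0.80. They included Cyp6a9, a cytochrome P450 (0.80), Dyrk2, a protein kinase (0.67), Mec2, a stomatin family gene (0.63), U3-55K, a protein of the U3 particle for ribosomal RNA processing (0.61), and Ugt302C1, a UDP-glycosyltransferase (0.57). The lysosomal Sap-r differed by 0.62 in 1 probe set and by -0.059 in the other. Of the other 2 leading higher genes with several probe sets, CG46491 differed by 0.68 in 141771_at and by -0.13 in 147349_at, and CG13678 by 0.61 in 148384_f_at and by 0.24 in 148383_r_at. The second value of all 3 genes was not called. The rest were CG42807 (0.70, with 1.07 in line 1 and 0.34 in line 2), CG16995 (0.69), CG4734 (0.69) and CG33307 (0.58). The leading higher genes spanned 813 to 49649 bases and the leading lower ones 5503 to 121572.

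Gene lists of tissues and pathways were then described with 1 probe set per gene, the brightest, by the number of members called and the median difference, beside 8.86% lower, 2.41% higher and a median of -0.052 over all probe sets. In RNA of whole flies, fewer cells of a type and less RNA per cell cannot be told apart. Of 34 germline and maternal genes 6 were called lower and 2 higher, and the median was -0.10. Lower were smg, a repressor of maternal mRNAs (-0.56 ± 0.072), otu (-0.49), BicC (-0.47), CycB (-0.39), spn-E, a helicase of the piRNA pathway (-0.39), and fs(1)N (-0.36), and higher were grk, a ligand of the EGF receptor (0.42), and pgc (0.27). CycB, fs(1)N, grk and pgc were named after their values were seen. For smg the 4 arrays stood at 12.1, 12.3, 12.3 and 12.3 and the others at 12.7 to 12.9, with no overlap. The brightest probe set of orb, the uncalled one above, stood for orb in this list.

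Of 15 DNA replication genes 3 were called lower and 12 in all were below 0, with a median of -0.20. These were dup, a loader of the replicative helicase (-0.64 ± 0.070), and 2 subunits of that helicase, dpa (-0.59) and Mcm2 (-0.37). Mcm2 differed by -0.60 in line 2 but by -0.15 in line 1. The gene dup stood at 9.81, 9.89, 9.78 and 9.94 on the 4 arrays and at 10.4 to 10.7 on the others.

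Genes of follicle cells were mostly above 0. The 17 listed and kept genes of the chorion and vitelline membrane, which make the eggshell, were all above 0 and none was called (adjusted p of limma). The list they stand in has 19 members, since a match by name also took in Cp190 (-0.096) and Cp110 (-0.19), which encode proteins of the centrosome and the centriole. With both included its median was 0.42, the highest of the lists with at least 5 members. Its mean level per array overlapped widely between the sides, from 10.5 to 11.3 on lines 1 and 2 and from 9.67 to 11.02 on lines 3 to 5, with selected lines 3 and 4 lowest. The median was 0.46 in line 1 and 0.097 in line 2.

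Of 41 digestive enzyme genes 35 were above 0 and 3 were called higher, with a median of 0.18. The median was 0.29 in line 1 and 0.10 in line 2, and 0.31 among control and 0.062 among selected lines. The called members were the serine proteases Jon99Ci (0.81), etaTry (0.63) and iotaTry (0.49). The list's mean level per array was 9.33 to 9.81 on lines 1 and 2 and 9.06 to 9.44 on lines 3 to 5, so that the sides overlapped. Of 16 hemocyte and basement membrane genes 13 were above 0, with crq, a scavenger receptor of phagocytes, called (0.48). That list had a median of 0.31 in line 1 and 0.031 in line 2. Of 13 fat body genes 11 were above 0, with regucalcin called (0.36), and the median was 0.25 in line 1 and 0.0050 in line 2.

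Of 64 genes of the mitochondrial ribosome 53 were above 0 and 4 were called higher, none lower, with a median of 0.11. The 4 were mRpS22 (0.41), mRpL44 (0.26), mRpL51 (0.25) and mRpL24 (0.24), and the list median was 0.17 in line 1 and 0.035 in line 2. The cytosolic ribosome had 25 of 35 genes below 0 and 2 called lower, RpL17 (-0.27) and RpL3 (-0.24), with a median of -0.057 that was 0.035 without line 2. Genes of the mitochondrial ribosome are short, with a median span of 909.5 bases, and those of the digestive enzymes have 942, against 2627 for DNA replication and 4528 for the germline list. The part of gene length in these list values was not tested.

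Muscle, energy and head genes gave few calls. None of 27 muscle genes was called, and their median was -0.11, which became 0.0059 without control line 2, whose muscle score was the lowest of the 10. Single muscle genes ran from -1.60 ± 0.88 (SE) for Act88F and -1.52 ± 0.80 for fln to 0.34 ± 0.19 for TpnC73F. Below 0 were 18 of them and above it 9. None of 60 genes of oxidative phosphorylation, 10 of the citrate cycle or 9 of glycolysis was called. Their medians were -0.032, -0.13 and -0.21, with 36, 8 and 6 members below 0. That of glycolysis was the lowest of the lists with at least 5 members, at -0.23 in line 1 and -0.11 in line 2. Of 17 phototransduction genes only rdgB, a lipid transfer protein of the photoreceptor, was called (-0.61 ± 0.078), and of 22 neural genes none. Of 15 neuropeptide genes Dh31 was called higher (0.59), from 3.14 to 3.34 in lines 3 to 5, within the range of absent controls, and at 3.19 to 4.28 in lines 1 and 2.

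Stress and defence genes varied from line to line. The peptide genes Mtk and DptB differed widely in their means, by 1.63 ± 0.57 and 1.39 ± 0.43, and neither was called. Mtk stood at 9.68 and 9.05 in control lines 1 and 2, at 7.62 and 6.47 in the selected ones and anywhere from 4.52 to 8.39 in lines 3 to 5. Of 16 heat shock and chaperone genes only Hsc70-3, the chaperone of the endoplasmic reticulum, was called (-1.35 ± 0.21). That was probe set 144895_f_at, whose ending marks shared or similar sequences, so it may not read this gene alone. The second probe set of Hsc70-3 was not called (-0.12). It stood at 3.20 to 3.57 in lines 1 and 2 and 3.41 to 3.6 in lines 3 to 5, within the range of absent controls.

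Of 76 cytochrome P450 genes Cyp6a9 and Cyp18a1 (0.60), which inactivates ecdysone, were called higher and Cyp6v1 (-0.41) lower. None of 34 glutathione transferase genes was called, with a median of 0.12. The vacuolar proton pump had VhaM9.7-c (0.46) higher and Vha100-2 (-0.50) and VhaSFD (-0.40) lower among 26 genes. The proteasome had Prosbeta5 (0.24) and the ribosome assembly list bor (0.35), 1 higher member each of 33 and 17. Whether bor acts in ribosome assembly was not checked. All 12 accessory gland genes and 12 of 13 testis genes were below 0, at levels near the absent controls. Their medians were -0.15 and -0.11. In line 1 these were -0.27 and -0.23, and in line 2 -0.027 and -0.013. Dim probe sets were shifted in general, with a median of -0.095 in the dimmest of 5 equal bins. There too line 1 had the shift, at -0.19 against -0.0036 in line 2. The mean level of the absent controls differed by -0.093.

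Last, the comparison of heat selected with control lines was made with and without the split as a covariate, since both sides hold both groups in equal proportion. With it, 1 of 12094 probe sets (0.00827%) passed limma's test at an adjusted p of 0.0341, and 1406 (11.6%) had an unadjusted p under 0.05, 794 higher and 612 lower in selected lines. Without it none passed, the lowest adjusted p was 0.26, and 1086 (8.98%) had an unadjusted p under 0.05. The median standard error was 0.0834 with the covariate and 0.0954 without.

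The probe set that passed, 143321_at, has no single gene name here. It stood at 7.21 ± 0.24 in control lines and 8.0 ± 0.25 in selected lines (SD, n = 5 each), a difference of 0.79 ± 0.090 (SE). Its highest control array, line 1, had 7.63 and its lowest selected array, line 5, had 7.68, so that the groups did not overlap. Leaving out control line 3 or 4, or selected line 1, 3 or 4, left 0 calls, while 65 probe sets passed when control line 1 was left out, 19 for control line 5, 5 for selected line 2 and 3 for control line 2.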

How the data were processed

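Array intensities of 10 samples were analysed, 1 per line. The authors deposited linear intensities, 1 per probe set, computed with GCRMA per the submitters' processing notes (version not given in the sources used here). GCRMA draws dim probe sets toward a common floor and understates their differences.

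Groups and line numbers came from the sample titles. Values were taken as log2(intensity + 1), which also understates differences of dim genes, and the 44 AFFX controls entered no fit. The package limma 3.58.1 (R 4.3.3; functions lmFit, eBayes; two-sided, Benjamini-Hochberg over 12094 probe sets, threshold 0.05) fitted the split with the group as covariate. It also fitted each combination of group and side, for the interaction, and each line number. Precision is limited by the number of arrays. All steps were tested on simulated data.

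A platform annotation gave 1 gene for 12442 of 14010 probe sets, several for 327 and none for 1197. Of the first, 12393 were found in a RefSeq gene table (Release 6 plus ISO1 MT), which gave names, chromosome arms and spans. Lengths of proteins were planned as a property and genomic spans were used instead.

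The split and the 33 gene lists were chosen with earlier results of these data known. Genes were named by rule: up to 15 per direction called with no overlap, up to 4 per list and up to 6 per direction for the interaction, the group effect and each line. Alternatives were another normalization, pseudocount, filter, model and set of arrays. Of the 15 leading lower genes, 1 is not reported here.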

Additional observations from a re-analysis of the deposited data

Results flagged for a closer look

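The values below stood far from the others of their set, which chance alone brings about in about 1 of 20 sets. The mean 3′ excess of the fly control mRNAs was 2.76 in selected line 1, the highest of the 5 selected arrays. A list score is the average deviation of its members from their own 10-array means. The score of the mitochondrial ribosome in the same array was 0.0821, the highest of the selected arrays, and that of the chaperonin ring was -0.124, the lowest. The score of the cytosolic ribosome was lowest in selected line 2, at -0.104. The score of the glutathione transferases was highest among control arrays in control line 1, at 0.261, and that of the cuticle proteins highest among lines 3 to 5 in selected line 3, at 0.350.

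Among single genes, selected line 4 stood apart from the other arrays of lines 3 to 5 with high levels of Svil (5.56) and CASK (7.51) and low ones of Jon99Ci (5.70, also the lowest selected array). Its level of Prosbeta5 (11.3) stood apart in the same set. Control line 1 stood apart from the other controls in Cyp6a9 (7.92), CG42807 (9.7), RpL3 (12.8), Dh31 (3.91) and NT5E-2 (5.21), and selected line 1 from the other selected arrays in NT5E-2 (5.20). Control line 4 stood apart among lines 3 to 5 in spn-E (9.65) and Mcm2 (9.46), selected line 2 among the selected arrays in Mcm2 (8.77), selected line 3 among lines 3 to 5 in CG33307 (6.08), and selected line 1 among lines 1 and 2 in CycB (11.3).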

How the results depend on the processing

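No named gene that was called changed direction under any alternative run. Over genes and alternatives, 50 differences of single genes moved by more than the spread between lines and 1470 did not, and for list medians these numbers were 37 and 621. Leaving out 1 array at a time gave 989 to 3889 called probe sets for the split, 863 to 3053 lower and 124 to 836 higher, 0 to 65 for the group effect, 0 to 0 for the interaction, a 3′ excess of 0.165 to 0.719 and 8 to 13 lists with a median below that of all probe sets (11 in the main setting). Without line 1 of both groups 126 were higher, 0 differed between groups and the 3′ excess was 0.0797. Without line 2 of both groups 4625 were called, 3463 lower and 1162 higher, with 2 for the group and an excess of 0.805. With the 3′ excess as covariate 830 were called, 74 higher, and 2 for the group. Quantile normalization gave 546 higher, a share of 36.7% of the calls, and moved the median of all probe sets by 0.061. It put cuticle proteins (0.012), odorant-binding proteins (0.0038) and the vacuolar proton pump (0.066) above 0. A pseudocount of 16 and the fit with no split covariate each gave 0 for the group. With 18S ribosomal RNA included the excess was 0.419 (an alternative chosen after seeing the data). The cause of these changes was not tested.

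Same-numbered arrays of the groups correlated in their deviations at 0.57, 0.27, 0.23, 0.41 and 0.08 for lines 1 to 5. Line 5 alone lay under the limit of 0.1 used for each pair. Over all pairs across groups, equal or unequal in number, lines 1 and 2 gave 0.21 to 0.57 and lines 3 to 5 gave 0.08 to 0.46. The deviations hold the split itself, so these values can neither show nor exclude that equal numbers pair the lines. With the line number as a random replicate block 1116 were called for the split, 183 of them higher, and 2 for the group. As a fixed block it gave 2 for the group as well, 143321_at and CG18088 (-1.45, each at an adjusted p of limma of 0.0469). The interaction had 0 calls in every setting, and dim probe sets limit what could be called.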
